A study of Homo sapiens with 18 samples.

Results

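Aminoacyl-tRNA synthetases were described here across 18 RNA-seq libraries of human malignant plasma cells. The members were the genes whose symbols name a cytosolic enzyme (20 genes: those ending in 1, with EPRS1, FARSA, FARSB and TARS3) or a mitochondrial enzyme (16 genes ending in 2). All 36 were found by Ensembl identifier among the 57905 genes of the count files. RNA came from the cell lines KMS12-BM, labelled as multiple myeloma, and JJN3, labelled as plasma cell leukemia. KMS12-BM cells had received 0.1 mM amiloride for 24 h, 0.4 mM TG003 for 24 h, or no drug (labelled as untreated, DMSO, with no duration). JJN3 cells had received 0.4 mM amiloride for 24 h, 0.4 mM TG003 for 24 h, or no drug, labelled in the same way. Each of the 6 groups had 3 libraries, and the labels do not say whether these came from separate cultures, so p-values measure only the spread between libraries. Amiloride, used as a diuretic, blocks the sodium channels of epithelia, and TG003 is an inhibitor of the CLK kinases, which phosphorylate splicing factors.

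An aminoacyl-tRNA synthetase joins an amino acid to its tRNA, the step that fixes which amino acid the ribosome adds for a codon. The cytosol and the mitochondrion each need a set, and most of the mitochondrial enzymes are made from nuclear genes of their own, while GARS1 and KARS1 encode the glycyl and lysyl enzymes of both compartments. Several cytosolic enzymes sit in a multi-synthetase complex held together by scaffold proteins. Many cytosolic synthetase genes are targets of ATF4, the transcription factor of the integrated stress response, which is switched on when amino acids run short or unfolded protein builds up. Plasma cells and myeloma cells secrete large amounts of antibody and carry a heavy load of protein synthesis.

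Between 23707695 and 50570234 reads fell in genes per library, and between 128297 and 370355 of them fell in the 36 members. The fewest reads of a member in a library were 48 (SARS2) and the most were 37074 (GARS1). All 36 members passed the filter on low counts in every fit. The TG003 libraries of both lines stood apart from the others: processed pseudogenes held 0.0734% to 0.0974% of their gene reads, against 4.22% to 5.28% in the other libraries, and reads without a unique place were counted as 7.79% to 9.13%, against 13.3% to 17.4%. The members' own pseudogenes held at most 0.103% of the count of a member in any library, and adding them to the members left every count of called members the same. Of the plasma-cell markers, IRF4 and XBP1 were at 129 CPM or more in all libraries, while SDC1 was at 13.1 to 14.04 CPM in KMS12-BM with DMSO and CD38 at 3.33 to 5.28 CPM in JJN3 with DMSO. Of the markers of other cell types, the epithelial EPCAM averaged 113 CPM in KMS12-BM and 24.5 CPM in JJN3 with DMSO, the B-cell gene PAX5 51.8 CPM in KMS12-BM (near 0 in JJN3) and the globin gene HBB 59.9 CPM in JJN3 (near 0 in KMS12-BM), while LYZ was at or near 0 in both lines. In bulk RNA, fewer cells of a kind and less RNA per cell cannot be told apart.

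Levels are given in CPM, read counts relative to the scaled library size, and levels of different genes are compared in CPM per kilobase of the canonical transcript. Fold changes are on the log2 scale with a standard error after ±. Genes counted as higher or lower had an adjusted p under 0.05 in edgeR's quasi-likelihood test, adjusted over all tested genes, and every adjusted p given here is from that test. Most genes given with the value of every library were picked among those whose groups did not overlap. Their separate ranges thus follow from that choice and add no support to the test.

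Without drug the cytosolic genes were far more abundant per kilobase than the mitochondrial genes. In KMS12-BM with DMSO the median cytosolic level was 81.4 CPM per kb (lowest 3.54, highest 156), and the median mitochondrial level was 13.04 CPM per kb (lowest 3.42, highest 60.5). In JJN3 with DMSO the medians were 75.9 CPM per kb for cytosolic genes and 13.4 CPM per kb for mitochondrial genes. NARS1, the asparaginyl enzyme, and GARS1 led in KMS12-BM at 156 ± 11.4 and 148 ± 19.7 CPM per kb (SD, n = 3), a gap smaller than their spread. KARS1 led in JJN3 at 209 ± 19.9 CPM per kb, with GARS1 next at 188 ± 26.7 CPM per kb, again within the spread. TARS3, another cytosolic threonyl enzyme beside TARS1, was the lowest cytosolic gene in both lines, at 3.54 ± 0.624 CPM per kb in KMS12-BM and 5.05 ± 0.295 CPM per kb in JJN3. TARS1 stood at 83.1 ± 12.4 CPM per kb in KMS12-BM and 104 ± 10.5 CPM per kb in JJN3. IARS2, the mitochondrial isoleucyl enzyme, was the highest mitochondrial gene in both lines, at 60.5 ± 10.5 CPM per kb in KMS12-BM and 33.1 ± 0.278 CPM per kb in JJN3. SARS2, the mitochondrial seryl enzyme, was near the bottom in both, at 3.42 ± 0.176 CPM per kb in KMS12-BM and 4.30 ± 0.142 CPM per kb in JJN3.

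**Figure D1:**
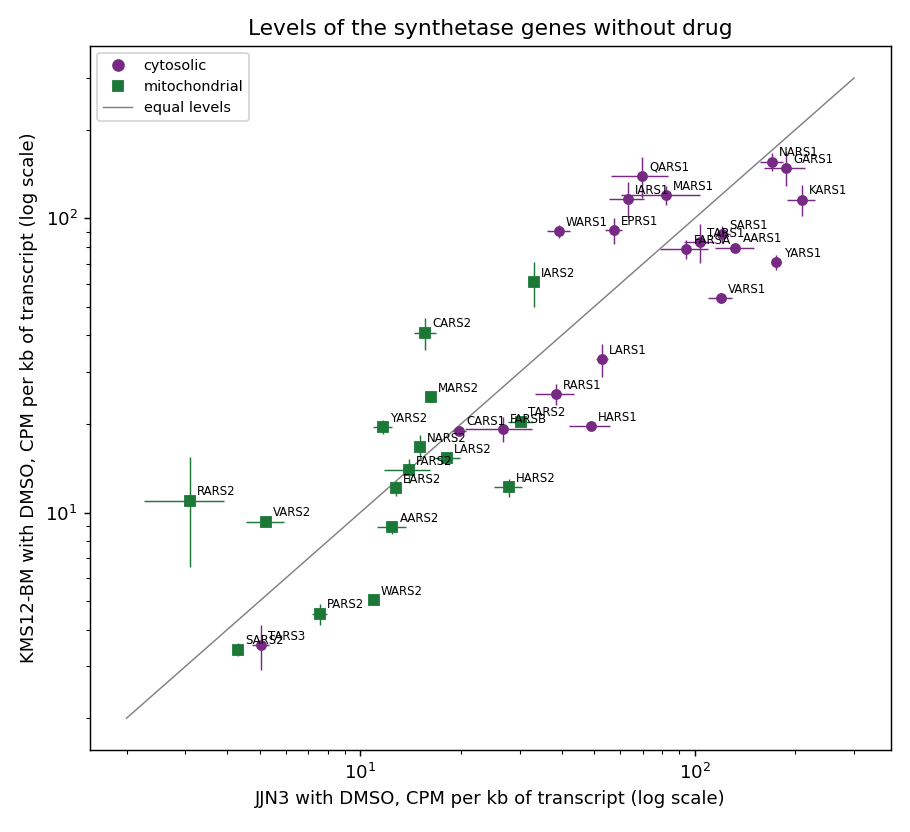
Mean level of each synthetase gene in DMSO libraries, in CPM per kb on log axes, for KMS12-BM (vertical) against JJN3 (horizontal); bars are the SD over 3 libraries, circles are cytosolic and squares mitochondrial genes, and the line marks equal levels. QARS1 and WARS1 lie above the line, HARS1, YARS1 and VARS1 below it, and RARS2 stands out among the mitochondrial genes with a wide bar in KMS12-BM.

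Which members differed between the lines without drug was asked next. In KMS12-BM against JJN3, 5 of 20 cytosolic genes were higher and 13 lower, where 36.8% of all tested genes were higher and 39.3% lower. Of the 16 mitochondrial genes, 6 were higher and 7 lower. Without 1 library at a time, 10 to 13 cytosolic and 5 to 7 mitochondrial genes were lower. The calls of FARSA, FARSB, GARS1, TARS1, LARS2 and SARS2 were each lost in at least 1 alternative setting (adjusted p up to 0.299 for FARSA). The median log2 fold change was -0.40 for cytosolic and -0.04 for mitochondrial genes, beside -0.04 for all tested genes, and without replicate 3 of JJN3 the mitochondrial median was -0.10. The lines were grown with different shares of serum, so line and medium cannot be told apart.

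WARS1, the tryptophanyl enzyme and a gene known to respond to interferon, had 226, 241 and 251 CPM in KMS12-BM with DMSO, against 111, 105 and 94.9 CPM in JJN3 with DMSO. All KMS12-BM libraries lay above all JJN3 libraries (log2 fold change 1.21 ± 0.10, adjusted p = 6.11e-10). QARS1, the glutaminyl enzyme, had 324, 299 and 402 CPM in KMS12-BM, against 158, 146 and 208 CPM in JJN3, with no overlap (log2 fold change 1.002 ± 0.13, adjusted p = 1.77e-06).

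HARS1, the histidyl enzyme, had 37.8, 38.4 and 38.7 CPM in KMS12-BM, against 97.6, 108 and 80.9 CPM in JJN3. It was the member with the largest drop, and its neighbour HARS2, which encodes the mitochondrial histidyl enzyme and shares 108 bp with it on the opposite strand, was also lower in every KMS12-BM library (log2 fold change -1.32 ± 0.09, adjusted p = 3.55e-11 for HARS1; log2 fold change -1.19 ± 0.10, adjusted p = 3.71e-10 for HARS2). YARS1, the tyrosyl enzyme, had 161, 179.7 and 178 CPM in KMS12-BM, against 417, 442 and 429 CPM in JJN3 (log2 fold change -1.31 ± 0.09, adjusted p = 1.3e-11). VARS1, the valyl enzyme, had 214, 222 and 223 CPM in KMS12-BM, against 522, 506 and 447 CPM in JJN3 (log2 fold change -1.16 ± 0.09, adjusted p = 1.34e-10). The ranges of both genes were separate.

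CARS2, the mitochondrial cysteinyl enzyme, had 82.0, 64.5 and 79.0 CPM in KMS12-BM, against 29.2, 30.6 and 26.3 CPM in JJN3, with no overlap (log2 fold change 1.39 ± 0.11, adjusted p = 4.66e-10). RARS2, the mitochondrial arginyl enzyme, had 13.1, 31.1 and 29.8 CPM in KMS12-BM, against 8.94, 6.62 and 5.23 CPM in JJN3. All KMS12-BM libraries lay above JJN3, yet replicate 1 of KMS12-BM held less than the other 2 (log2 fold change 1.83 ± 0.26, adjusted p = 6.08e-06). For the tyrosyl and valyl enzymes the mitochondrial gene went the other way: YARS2 and VARS2 were higher in KMS12-BM, with log2 fold changes of 0.74 ± 0.09, adjusted p = 1.57e-07 for YARS2 and 0.83 ± 0.12, adjusted p = 2.02e-06 for VARS2. The other cytosolic genes that were higher in KMS12-BM were IARS1 (0.88 ± 0.11, adjusted p = 2.17e-07), EPRS1 (0.67 ± 0.09, adjusted p = 1.72e-06) and MARS1 (0.55 ± 0.17, adjusted p = 0.00769), all enzymes of the multi-synthetase complex, as is QARS1. The complex has 7 enzymes in the list used here, and its other 3, KARS1, LARS1 and RARS1, were lower.

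Summed over each class, the cytosolic genes outweighed the mitochondrial genes most with amiloride in KMS12-BM. The 20 cytosolic genes added up to 7219 ± 560 CPM with amiloride, 4221 ± 337 CPM with TG003 and 4548 ± 306 CPM with DMSO in KMS12-BM (SD, n = 3 each). The 16 mitochondrial genes added up to 726 ± 64.6 CPM with amiloride, 909 ± 36.8 CPM with TG003 and 824 ± 51.6 CPM with DMSO. The cytosolic over mitochondrial ratio was thus 9.58 to 10.4 with amiloride, 4.43 to 4.80 with TG003 and 5.45 to 5.61 with DMSO, and the ranges of the 3 groups were separate. In JJN3 the ratio was 7.25 to 7.86 with amiloride, 6.25 to 6.71 with TG003 and 6.72 to 7.42 with DMSO. The amiloride range overlapped that of DMSO in JJN3, and the TG003 range lay just below it. Sums were not tested, since the members were chosen with results of these data known.

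**Figure D2:**
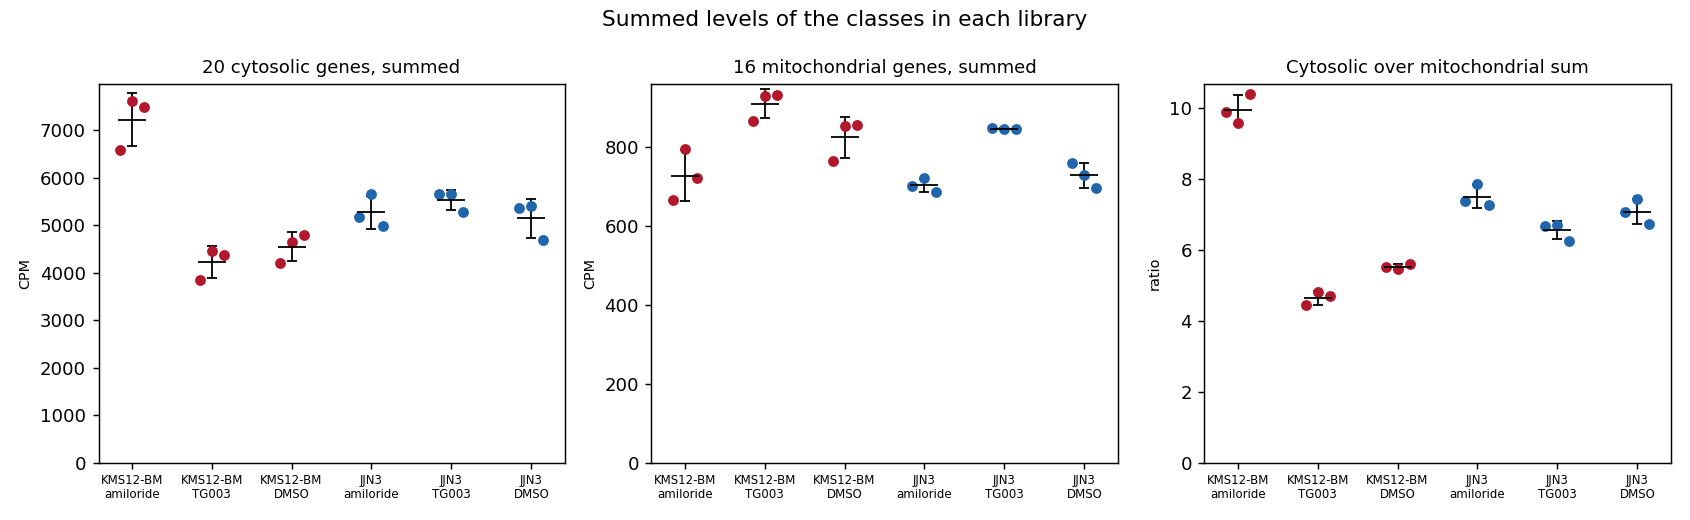
Summed CPM of the 20 cytosolic genes (left), of the 16 mitochondrial genes (middle) and their ratio (right) in each library; points are libraries, bars the mean and SD over 3. With amiloride, KMS12-BM libraries reach a ratio of 9.58 to 10.4, above every other library.

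With amiloride in KMS12-BM the class medians took opposite signs. Of the cytosolic genes 12 of 20 were higher and 5 lower, beside 33.5% of all tested genes higher and 35.2% lower, and of the mitochondrial genes 4 of 16 were higher and 9 lower. The median log2 fold change was 0.55 for cytosolic genes, -0.38 for mitochondrial genes and -0.02 for all tested genes. Cytosolic values ran from -1.40 to 2.16 and mitochondrial values from -2.11 to 0.52. Of the 12 cytosolic genes listed as ATF4 targets, 11 were higher and IARS1 was not called (adjusted p = 0.0657, and 0.0143 with same-numbered libraries as a block), with a median of 0.87. Of the 8 other cytosolic genes, RARS1 was higher and 5 were lower, with a median of -0.47. Both lists were chosen with earlier results of these data known, so the split between them, here and in the other comparisons, is a description only. Reads of the mitochondrial genome itself made up 0.265% to 0.448% of gene reads with amiloride, against 3.86% to 4.25% with DMSO, and the part of this in the results was not tested.

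SARS1, the cytosolic seryl enzyme, had 622, 790.3 and 855 CPM with amiloride, against 169, 157 and 179.8 CPM with DMSO. Every amiloride library was several times above every DMSO library (log2 fold change 2.16 ± 0.17, adjusted p = 1.16e-06). SARS2 went the opposite way, with 1.87, 1.11 and 1.61 CPM with amiloride, against 6.63, 6.89 and 6.22 CPM with DMSO, and no overlap (log2 fold change -2.11 ± 0.19, adjusted p = 1.69e-06). The seryl pair thus held both the largest rise and the largest drop among the members. SARS2 shares 1492 bp of its 3098 bp of exons with ENSG00000269547 on the same strand, and reads there may have been left out or split. AARS2, the mitochondrial alanyl enzyme, had 18.1, 16.5 and 17.6 CPM with amiloride, against 45.0, 42.7 and 40.8 CPM with DMSO (log2 fold change -1.30 ± 0.09, adjusted p = 2.17e-07). AARS1, the cytosolic alanyl enzyme, had 364, 505 and 433 CPM with amiloride, against 278, 267 and 276 CPM with DMSO (log2 fold change 0.67 ± 0.13, adjusted p = 0.000736). Both alanyl genes had separate ranges, in opposite directions.

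CARS1, the cytosolic cysteinyl enzyme, had 121, 176 and 163 CPM with amiloride, against 50.1, 52.6 and 53.3 CPM with DMSO (log2 fold change 1.56 ± 0.16, adjusted p = 7.41e-06). TARS1 had 605, 698 and 645 CPM with amiloride, against 188, 224 and 254 CPM with DMSO (log2 fold change 1.55 ± 0.12, adjusted p = 7.17e-07). MARS1, the cytosolic methionyl enzyme, had 671, 782 and 786 CPM with amiloride, against 331, 362 and 314 CPM with DMSO (log2 fold change 1.15 ± 0.10, adjusted p = 1.08e-06). In all 3 genes each amiloride library exceeded each DMSO library. MARS1 overlaps DDIT3, which encodes the stress factor CHOP, by 355 bp on the opposite strand, and DDIT3 itself had 137, 181 and 168 CPM with amiloride against 20.0, 17.3 and 19.2 CPM with DMSO. The strand setting of the counting is not given in the sources used here, so reads of the pair in that stretch cannot be told apart.

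QARS1 was the cytosolic gene with the largest drop, with 112, 140.5 and 135 CPM with amiloride, against 324, 299 and 402 CPM with DMSO and no overlap (log2 fold change -1.40 ± 0.12, adjusted p = 1.5e-06). HARS1 was lower too (log2 fold change -0.82 ± 0.08, adjusted p = 3.71e-06), as were both subunits of the phenylalanyl enzyme (log2 fold change -0.67 ± 0.11, adjusted p = 0.000165 for FARSA; log2 fold change -0.45 ± 0.09, adjusted p = 0.00108 for FARSB) and VARS1 (log2 fold change -0.49 ± 0.09, adjusted p = 0.000553). YARS2, the mitochondrial tyrosyl enzyme, had 20.9, 22.6 and 19.8 CPM with amiloride, against 39.1, 43.8 and 41.2 CPM with DMSO (log2 fold change -0.97 ± 0.08, adjusted p = 1.5e-06). YARS1 was higher (log2 fold change 0.62 ± 0.09, adjusted p = 6.31e-05), so the tyrosyl pair parted in the same way as the seryl and alanyl pairs. By their calls, CARS1 and CARS2, MARS1 and MARS2, RARS1 and RARS2, and TARS1 and TARS2 parted likewise. NARS1 and NARS2 were both higher, as were WARS1 and WARS2, while VARS1 and VARS2 were both lower. HARS1 and FARSA were lower where HARS2 and FARS2 were higher. Several of these calls were lost in alternative settings, as given below.

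Of the other genes followed in each comparison, GARS1 had a log2 fold change of 1.11 ± 0.12, adjusted p = 5.46e-06, WARS1 of 0.88 ± 0.11, adjusted p = 1.75e-05 and EPRS1, the joined glutamyl and prolyl enzyme, of 0.33 ± 0.08, adjusted p = 0.00339. EARS2, the mitochondrial glutamyl enzyme, was lower (log2 fold change -0.50 ± 0.09, adjusted p = 0.000482). KARS1 (0.09 ± 0.12, adjusted p = 0.542), TARS3 (0.12 ± 0.14, adjusted p = 0.467), IARS2 (0.08 ± 0.14, adjusted p = 0.618) and LARS2, the mitochondrial leucyl enzyme (-0.05 ± 0.09, adjusted p = 0.634), did not pass the test. NARS1 (0.85 ± 0.08, adjusted p = 2.39e-06) and LARS1, the cytosolic leucyl enzyme (0.48 ± 0.09, adjusted p = 0.000583), were higher. The mitochondrial genes that were higher were NARS2 (0.51 ± 0.11, adjusted p = 0.00147), WARS2 (0.50 ± 0.12, adjusted p = 0.00229), FARS2 (0.48 ± 0.15, adjusted p = 0.0158) and HARS2 (0.25 ± 0.10, adjusted p = 0.0466), and in FARS2 and HARS2 the groups overlapped. TARS2 (-0.28 ± 0.10, adjusted p = 0.0296), MARS2 (-0.48 ± 0.10, adjusted p = 0.000991), CARS2 (-0.59 ± 0.13, adjusted p = 0.00157), VARS2 (-0.66 ± 0.13, adjusted p = 0.000671) and RARS2 (-0.67 ± 0.27, adjusted p = 0.0444) were lower, with overlapping groups in RARS2. FARS2 lost its call without replicate 3 of either group (adjusted p = 0.0593 to 0.0668), which left 2 mitochondrial genes higher in place of 4, and TARS2 without replicate 2 or 3 of DMSO or replicate 1 of amiloride (adjusted p = 0.0605 to 0.103). The calls of HARS2 and RARS2 each held in only 7 of 19 alternative settings (adjusted p up to 0.166 for HARS2 and 0.167 for RARS2).

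With the trend over GC content removed, fewer members were called with amiloride in KMS12-BM. The cytosolic genes EPRS1 (adjusted p = 0.609), LARS1 (0.0943), FARSA (0.515) and VARS1 (0.289) and the mitochondrial genes CARS2 (0.0798), VARS2 (0.402), WARS2 (0.0849) and TARS2 (0.921) then missed the threshold, with VARS1 and TARS2 changing sign, while PARS2, the mitochondrial prolyl enzyme, passed it. That left 3 cytosolic genes lower in place of 5, and the medians were 0.25 (cytosolic) and -0.14 (mitochondrial). Calls over all tested genes did not fall in this way: 5452 were higher and 5496 lower, against 5281 and 5554 before the correction. Before this correction the members called lower had a median GC content of 54.8% (cytosolic) and 54.6% (mitochondrial), against 48.3% and 47.0% for those called higher.

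**Figure D3:**
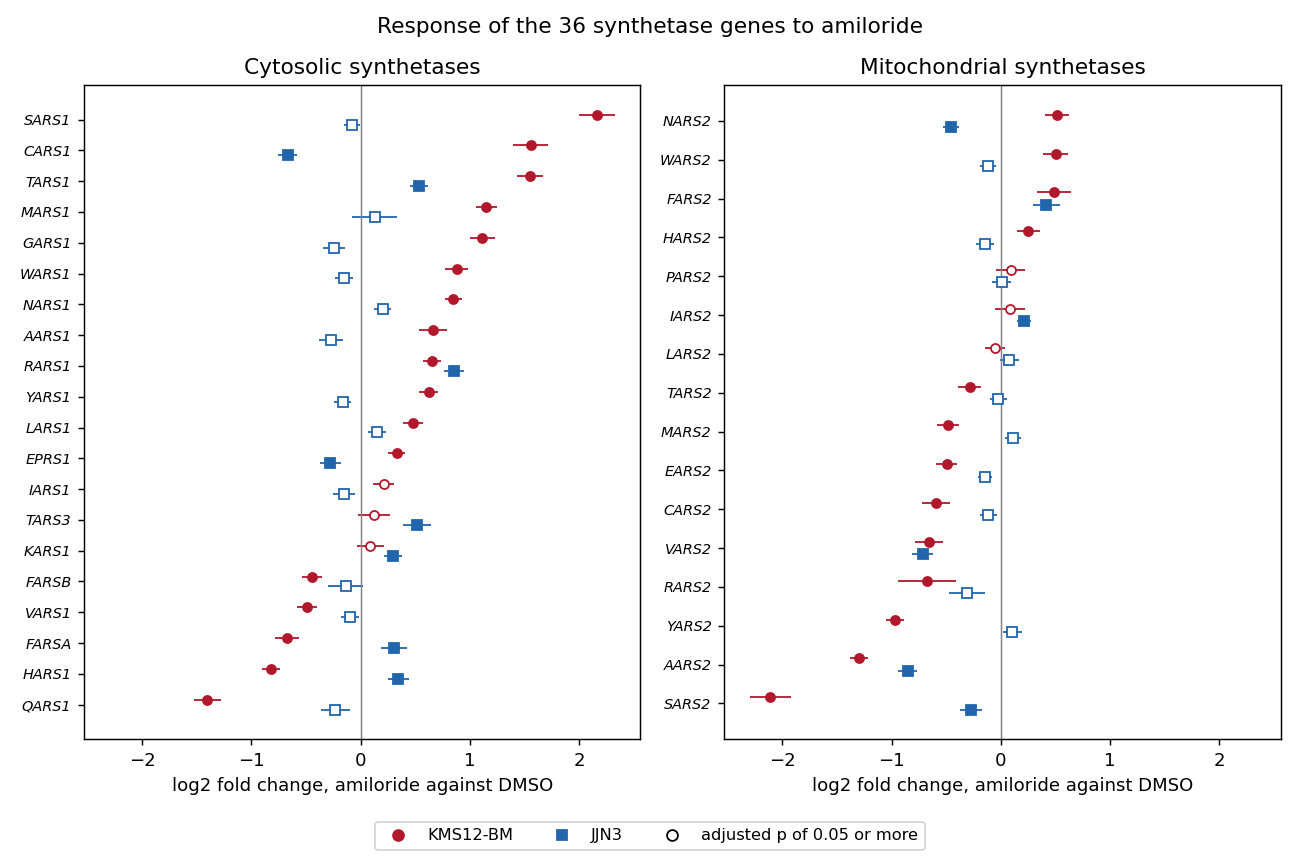
Log2 fold change with amiloride against DMSO of the 20 cytosolic genes (left) and 16 mitochondrial genes (right), in the order of the KMS12-BM values; bars are the standard error, circles are KMS12-BM at 0.1 mM and squares JJN3 at 0.4 mM, and open symbols did not pass the test. KMS12-BM values run from -2.11 (SARS2) to 2.16 (SARS1), and JJN3 values from -0.85 (AARS2) to 0.85 (RARS1).

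Of 13 partner genes, 3 were higher and 6 lower with amiloride in KMS12-BM. Beside this and the next counts, 33.5% of all tested genes were higher and 35.2% lower. The scaffold genes AIMP1 and AIMP2 of the multi-synthetase complex were higher (log2 fold change 1.01 ± 0.08, adjusted p = 6.42e-07 for AIMP1; log2 fold change 0.62 ± 0.08, adjusted p = 2.86e-05 for AIMP2), and among the 7 enzymes of that complex 4 were higher and QARS1 was lower. QRSL1, a subunit of the mitochondrial enzyme that turns glutamyl into glutaminyl tRNA, was higher (log2 fold change 1.06 ± 0.08, adjusted p = 4.78e-07), while its partner subunit GATB was lower (log2 fold change -0.52 ± 0.13, adjusted p = 0.00421). XPOT, which exports tRNA from the nucleus, was lower (log2 fold change -0.55 ± 0.08, adjusted p = 6.95e-05), and so was MTFMT, which formylates the mitochondrial initiator tRNA (log2 fold change -1.08 ± 0.10, adjusted p = 1.88e-06). Of the integrated stress response genes, 7 of 8 were higher, among them DDIT3 (3.11 ± 0.24, adjusted p = 1.98e-06) and TRIB3 (1.84 ± 0.13, adjusted p = 4.32e-07), and ASNS was not called (0.28 ± 0.20, adjusted p = 0.231). Of 9 markers of other cell types, 6 could be tested, of which 5 were higher and CD3E lower with amiloride. Their sum stood at 197 to 257 CPM with amiloride against 159 to 179 CPM with DMSO, carried by EPCAM (158 ± 34.6 CPM against 113 ± 8.13 CPM) and PAX5 (64.2 ± 4.98 CPM against 51.8 ± 3.15 CPM; SD, n = 3). CD14 was at 0.971 to 1.18 CPM against 0.0250 to 0.0400 CPM, and LYZ near 0. The plasma-cell markers, of which 2 of 7 were higher and 2 lower, added up to 2821 to 3145 CPM with amiloride against 2071 to 2156 CPM with DMSO. That sum was carried by IRF4 (1966 to 2212 CPM against 1130 to 1202 CPM) and XBP1 (430 to 542 CPM against 275 to 313 CPM). MZB1 (57.1 to 111 CPM against 289 to 351 CPM) and SDC1 (2.35 to 2.88 CPM against 13.1 to 14.04 CPM) dropped. The part of the markers in these results was not tested.

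The promoters of members that moved together were then searched for TGATGNAA, the letters of the element that ATF4 binds with C/EBP partners, on both strands (TTNCATCA on the other). RefSeq promoter sequences (GRCh38.p14, 250 bases before to 50 after the start) were matched by symbol for 30 members, all but LARS1, TARS3, VARS1, YARS1, AARS2 and VARS2. The motif was present in 1270 of 35116 promoters of that length (3.62%). Members were counted by gene, with a match in any promoter of the gene, so their unit differs from that share. The motif was present in 6 of the 10 matched cytosolic genes that were higher with amiloride in KMS12-BM, and in none of the 4 that were lower. Among mitochondrial genes it was present in 1 of 7 that were lower and in none of 4 that were higher. IARS1, which did not pass the test in KMS12-BM, also had it. Of all 30 matched members, 8 had it (26.7%), and each cytosolic gene among these is on the list of ATF4 targets. That list was chosen with earlier results of these data known. A match of letters is a description and not a binding site. The 30 bases around each match are shown because 6 of the 8 belong to cytosolic genes that were higher together, with the motif in capitals:
AARS1: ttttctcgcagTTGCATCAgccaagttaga
CARS1: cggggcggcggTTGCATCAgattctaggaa
GARS1: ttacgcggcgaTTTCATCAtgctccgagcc
MARS1: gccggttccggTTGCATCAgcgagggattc
NARS1: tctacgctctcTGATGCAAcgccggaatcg
TARS1: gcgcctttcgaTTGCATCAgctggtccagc
IARS1: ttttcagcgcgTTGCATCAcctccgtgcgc
YARS2: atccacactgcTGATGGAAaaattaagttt
All are written 5′ to 3′ on the strand of the gene. They lie at chr16:70289675-70289704 (minus strand, AARS1), chr11:3057407-3057436 (minus, CARS1), chr7:30594834-30594863 (plus, GARS1) and chr12:57488053-57488082 (plus, MARS1). The others lie at chr18:57621804-57621833 (minus, NARS1), chr5:33440956-33440985 (plus, TARS1), chr9:92293692-92293721 (minus, IARS1) and chr12:32756076-32756105 (minus, YARS2). Counted from the annotated start as 0, the motif began at -2 in CARS1, -4 in MARS1, -13 in IARS1, -33 in GARS1, 2 in TARS1 and 14 in NARS1, and farther out at -187 in AARS1 and -197 in YARS2. In 5 of the 8 it read TTGCATCA. SARS1, the member that rose most, had no match in this window.

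**Figure D4:**
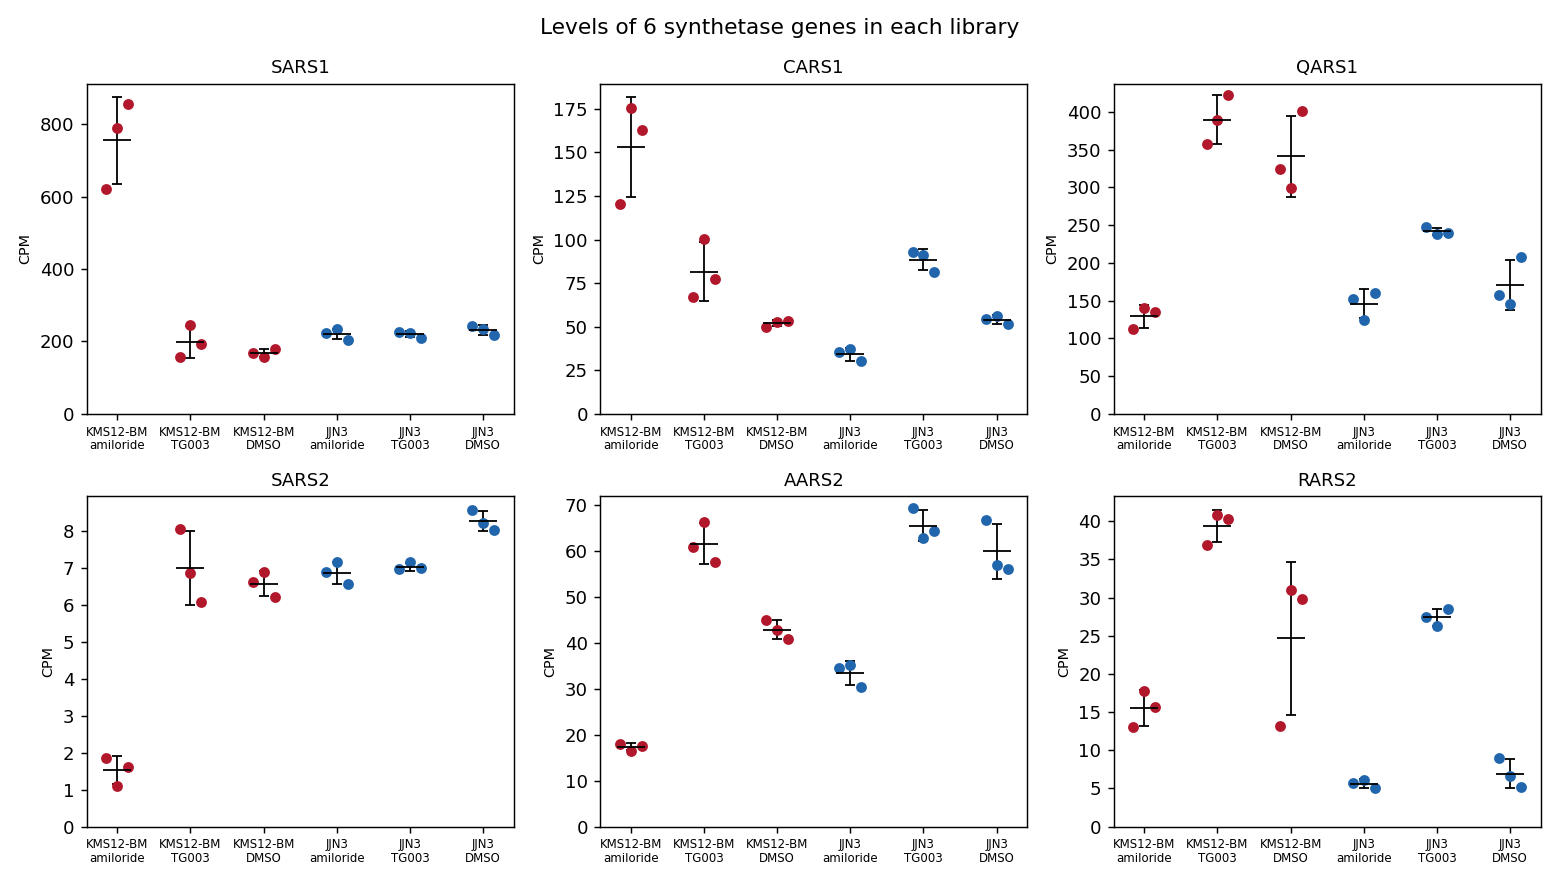
CPM of 6 synthetase genes in each of the 18 libraries; points are libraries and bars the mean and SD over 3, with each line's drugs left of its DMSO group. SARS1 and CARS1 rise and SARS2, AARS2 and QARS1 drop with amiloride in KMS12-BM, and RARS2 rises with TG003 in JJN3.

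In JJN3 fewer members passed the test with amiloride. Of the cytosolic genes 6 of 20 were higher and 2 lower, beside 19.7% of all tested genes higher and 23.9% lower, and 2 of 16 mitochondrial genes were higher and 4 lower. The median log2 fold change was -0.09 for cytosolic, -0.12 for mitochondrial and -0.03 for all tested genes. The ATF4-linked cytosolic genes had a median of -0.15, with 1 higher and 2 lower, and 5 of the 8 other cytosolic genes were higher. Of the 8 stress response genes, 5 were lower and the other 3 did not pass the test. Among the 13 partners 5 were higher and 3 lower: the scaffold genes AIMP1 (0.42 ± 0.07, adjusted p = 0.000269) and AIMP2 (0.63 ± 0.09, adjusted p = 0.000122) and the subunit gene QRSL1 (0.65 ± 0.08, adjusted p = 4.69e-05) were higher and XPOT (-1.19 ± 0.11, adjusted p = 6.9e-06) was lower, as in KMS12-BM. Reads of the mitochondrial genome made up 0.709% to 1.04% of gene reads with amiloride, against 2.06% to 2.61% with DMSO. Markers of other cell types added up to 74.0 to 102 CPM with amiloride against 79.9 to 91.7 CPM with DMSO, and the plasma-cell markers, of which 2 of 7 were lower, to 1395 to 1839 CPM against 1951 to 2136 CPM. Their part in these results was not tested.

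RARS1, the cytosolic arginyl enzyme, had 136, 147 and 161 CPM with amiloride, against 84.3, 90.8 and 69.5 CPM with DMSO, with no overlap (log2 fold change 0.85 ± 0.09, adjusted p = 2.3e-05). TARS1 had 396, 431 and 385 CPM with amiloride, against 285, 301 and 246 CPM with DMSO (log2 fold change 0.54 ± 0.08, adjusted p = 0.000223). These were the 2 of 20 cytosolic genes called higher in both lines, as was FARS2 of the 16 mitochondrial genes, where 13.1% of genes tested in both lines were. CARS1 had 35.3, 37.4 and 30.1 CPM with amiloride, against 54.6, 56.3 and 51.5 CPM with DMSO, so that it was lower in every JJN3 library treated (log2 fold change -0.67 ± 0.09, adjusted p = 8.24e-05). TARS3 had 24.1, 20.9 and 30.3 CPM with amiloride, against 18.1, 16.4 and 18.3 CPM with DMSO (log2 fold change 0.51 ± 0.13, adjusted p = 0.00638). HARS1 had 129, 118 and 119 CPM with amiloride, against 97.6, 108 and 80.9 CPM with DMSO (log2 fold change 0.35 ± 0.10, adjusted p = 0.0114). Both were higher in every amiloride library than in every DMSO library.

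AARS2 had 34.5, 35.2 and 30.4 CPM with amiloride, against 66.8, 57.0 and 55.9 CPM with DMSO (log2 fold change -0.85 ± 0.09, adjusted p = 1.81e-05). VARS2, the mitochondrial valyl enzyme, had 11.3, 11.8 and 11.2 CPM with amiloride, against 18.2, 21.3 and 16.5 CPM with DMSO (log2 fold change -0.72 ± 0.10, adjusted p = 0.000106). Neither gene overlapped between the groups, and both were lower in KMS12-BM as well, where 15.6% of genes tested in both lines were lower in both. SARS2 was also called lower in JJN3 (log2 fold change -0.27 ± 0.10, adjusted p = 0.0377), a call that held in 7 of 19 alternative settings and was lost without any 1 DMSO or amiloride library of JJN3 (adjusted p = 0.0559 to 0.114). NARS2, the mitochondrial asparaginyl enzyme, had 27.2, 29.2 and 26.6 CPM with amiloride, against 38.7, 36.6 and 38.4 CPM with DMSO (log2 fold change -0.46 ± 0.07, adjusted p = 0.000323), a drop where KMS12-BM showed a rise.

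FARSA (0.31 ± 0.12, adjusted p = 0.049), FARS2, the mitochondrial phenylalanyl enzyme (0.42 ± 0.12, adjusted p = 0.0155), KARS1 (0.30 ± 0.08, adjusted p = 0.0112) and IARS2 (0.22 ± 0.06, adjusted p = 0.0149) were higher and EPRS1 was lower (log2 fold change -0.28 ± 0.09, adjusted p = 0.0292). AARS1 (-0.27 ± 0.11, adjusted p = 0.0624), GARS1 (-0.24 ± 0.10, adjusted p = 0.0763), WARS1 (-0.15 ± 0.08, adjusted p = 0.15), LARS2 (0.08 ± 0.09, adjusted p = 0.492) and EARS2 (-0.15 ± 0.06, adjusted p = 0.0786) did not pass the test. The EPRS1 call was lost with the compared groups alone (adjusted p = 0.0652) and without replicate 1 or 2 of DMSO or replicate 1 or 3 of amiloride (adjusted p = 0.0727 to 0.112). IARS2 lost its call without replicate 2 of DMSO (adjusted p = 0.0549). FARSA lost its call without replicate 2 or 3 of DMSO, any amiloride replicate or replicate 3 of TG003 (adjusted p = 0.0556 to 0.183), and FARS2 without replicate 3 of DMSO or 1 of amiloride (adjusted p = 0.0628 to 0.0651). The 2 cytosolic genes lower became 1 without any of these 4 libraries, and 4 without replicate 3 of DMSO or replicate 2 of amiloride, where AARS1 and GARS1 passed. The 2 mitochondrial genes higher became 1 without replicate 2 or 3 of DMSO or replicate 1 of amiloride.

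Whether the lines differed in their response to amiloride was tested by the interaction term of a fit to all 18 libraries. The response in KMS12-BM was above that in JJN3 for 10 of 20 cytosolic genes and below it in 4, beside 21.6% of all tested genes in each direction, and above in 3 of 16 mitochondrial genes and below in 6. Of the 12 ATF4-linked genes 10 were above, with a median difference of 0.97 on the log2 scale, and of the 8 other cytosolic genes 4 were below and the rest did not pass. As these lists were chosen with earlier results of these data known, this contrast is a description only. SARS1 differed by 2.23 ± 0.18, adjusted p = 2.62e-08, CARS1 by 2.22 ± 0.19, adjusted p = 4.55e-08 and GARS1 by 1.35 ± 0.17, adjusted p = 2.35e-06 (KMS12-BM minus JJN3). SARS2 differed by -1.85 ± 0.21, adjusted p = 5.79e-07 and YARS2 by -1.08 ± 0.12, adjusted p = 7.61e-07. HARS1 was called in opposite directions in the lines, and its difference was -1.17 ± 0.13, adjusted p = 4.13e-07. FARSA was too, though its JJN3 call was lost without any 1 of 6 libraries and its KMS12-BM call with the GC trend removed, and its difference was -0.98 ± 0.16, adjusted p = 5.92e-05. VARS2, by contrast, differed by 0.05 ± 0.17, adjusted p = 0.871, and the interval of that difference spans changes of either sign. KMS12-BM received 0.1 mM and JJN3 0.4 mM, so line and dose cannot be told apart.

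With TG003 in KMS12-BM the mitochondrial genes were more often higher than lower. The drug comparisons of a line share its DMSO libraries. In both lines every TG003 library is also one with few pseudogene reads, so drug and that difference cannot be told apart. Of the cytosolic genes 3 of 20 were higher and 6 lower, beside 26.9% of all tested genes higher and 31.7% lower, while 9 of 16 mitochondrial genes were higher and 2 lower. The median log2 fold change was -0.04 for cytosolic genes, 0.31 for mitochondrial genes and -0.03 for all tested genes. Of the 12 ATF4-linked genes 1 was higher and 4 lower (median -0.04), and of the 8 other cytosolic genes 2 were higher and 2 lower (median -0.03). Of the 8 stress response genes 4 were higher and the others were not called (median 0.37), and of the 13 partners 3 were higher and 7 lower. TARS3 had 19.6, 20.2 and 19.1 CPM with TG003, against 9.81, 13.7 and 13.5 CPM with DMSO (log2 fold change 0.67 ± 0.14, adjusted p = 0.00186). CARS1 had 67.1, 100.1 and 77.5 CPM with TG003, against 50.1, 52.6 and 53.3 CPM with DMSO (log2 fold change 0.65 ± 0.16, adjusted p = 0.00444). Both genes had separate ranges. YARS1 had 111, 119 and 128 CPM with TG003, against 161, 179.7 and 178 CPM with DMSO (log2 fold change -0.53 ± 0.09, adjusted p = 0.000364). KARS1 had 156, 166 and 175 CPM with TG003, against 200.3, 253 and 238 CPM with DMSO (log2 fold change -0.47 ± 0.12, adjusted p = 0.00673). VARS1 had 162, 147 and 172 CPM with TG003, against 214, 222 and 223 CPM with DMSO (log2 fold change -0.45 ± 0.09, adjusted p = 0.00144). These 3 genes were lower in every TG003 library than in every DMSO library.

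MARS2, the mitochondrial methionyl enzyme, had 33.5, 30.1 and 32.3 CPM with TG003, against 71.3, 76.8 and 75.9 CPM with DMSO. Each TG003 library lay below each DMSO library (log2 fold change -1.22 ± 0.10, adjusted p = 1.18e-06). VARS2 had 53.7, 59.7 and 60.7 CPM with TG003, against 32.4, 32.9 and 34.6 CPM with DMSO (log2 fold change 0.81 ± 0.13, adjusted p = 0.000209). RARS2 had 36.9, 40.8 and 40.2 CPM with TG003, against 13.1, 31.1 and 29.8 CPM with DMSO (log2 fold change 0.67 ± 0.26, adjusted p = 0.0477). The RARS2 ranges were separate, but replicate 1 of DMSO was far below the other 2, and the call was lost without any single amiloride or TG003 replicate of this line (adjusted p = 0.0552 to 0.111), with DESeq2 size factors, with no filter, with the compared groups alone and with the GC trend removed (adjusted p = 0.0549 to 0.174).

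Of the other genes followed, LARS2 (0.43 ± 0.09, adjusted p = 0.00219) and EARS2 (0.26 ± 0.09, adjusted p = 0.0302) were higher and EPRS1 (-0.26 ± 0.08, adjusted p = 0.0171) was lower. RARS1 was higher (0.29 ± 0.08, adjusted p = 0.0104), NARS1 (-0.25 ± 0.08, adjusted p = 0.0171) was lower, and WARS2 (0.58 ± 0.12, adjusted p = 0.00117), AARS2 (0.53 ± 0.08, adjusted p = 0.000228), TARS2 (0.53 ± 0.10, adjusted p = 0.00107), NARS2 (0.42 ± 0.11, adjusted p = 0.00737) and HARS2 (0.36 ± 0.10, adjusted p = 0.00993) were higher. YARS2, which was also lower with amiloride, was lower with TG003 (-0.46 ± 0.08, adjusted p = 0.000644). AARS1 (0.26 ± 0.13, adjusted p = 0.105), GARS1 (-0.06 ± 0.11, adjusted p = 0.682), WARS1 (-0.03 ± 0.11, adjusted p = 0.801), TARS1 (-0.03 ± 0.12, adjusted p = 0.867), IARS2 (-0.07 ± 0.14, adjusted p = 0.672) and PARS2 (-0.04 ± 0.13, adjusted p = 0.792) did not pass. The EPRS1 call was lost with upper-quartile factors and without replicate 2 or 3 of DMSO or replicate 1 of TG003 (adjusted p = 0.0618 to 0.0706). That of EARS2 was lost without replicate 2 or 3 of either group (adjusted p = 0.0834 to 0.115 for DMSO and 0.0917 to 0.134 for TG003). NARS1 lost its call with upper-quartile factors and without replicate 2 or 3 of DMSO or 1 of TG003 (adjusted p = 0.0574 to 0.0728), RARS1 with the GC trend removed (adjusted p = 0.0698) and HARS2 without replicate 2 of TG003 (adjusted p = 0.0505). FARSB, not called here, passed with same-numbered libraries as a block (log2 fold change -0.21, adjusted p = 0.0405). Without replicate 1 of TG003, 5 cytosolic genes in place of 3 were higher, and AARS1 passed with an adjusted p of 0.0212.

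**Figure D5:**
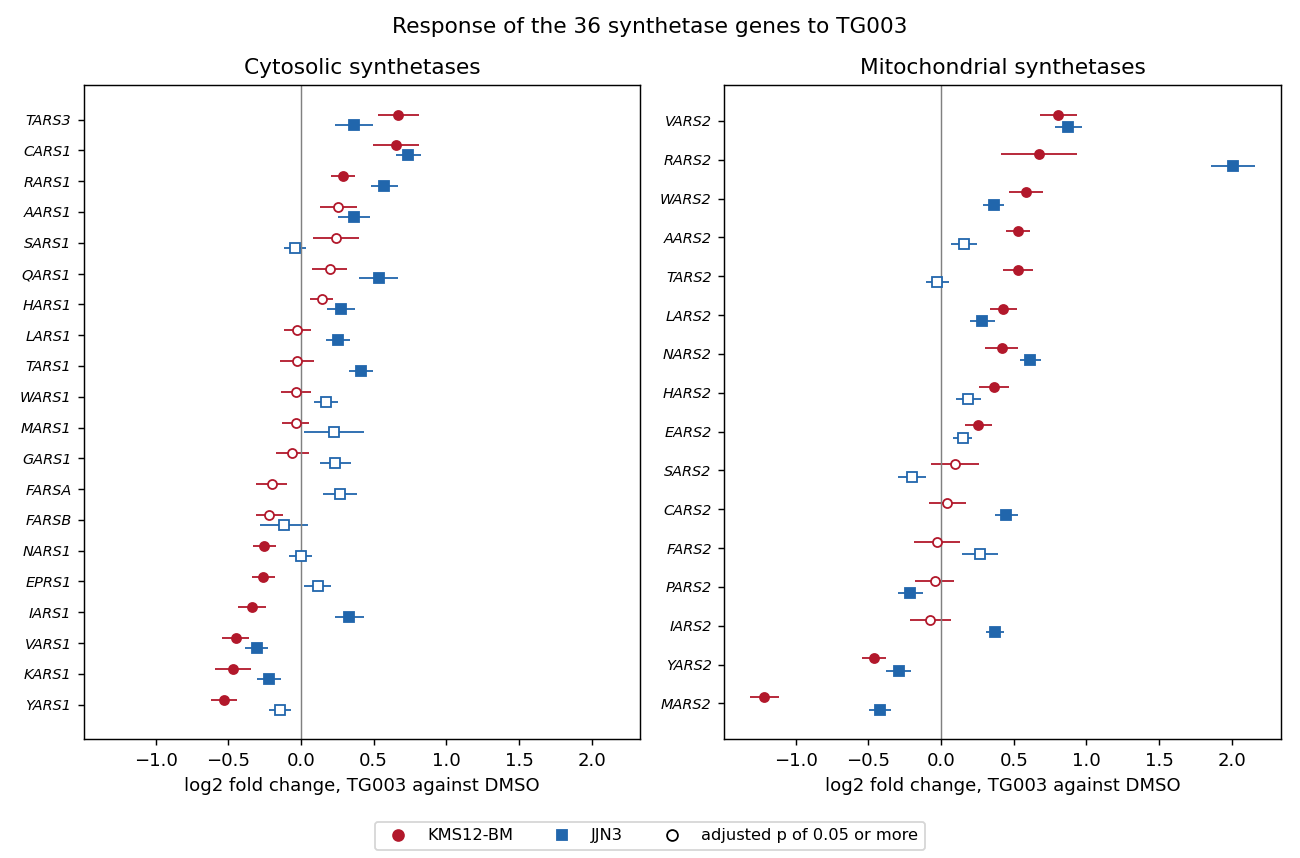
Log2 fold change with 0.4 mM TG003 against DMSO of the 20 cytosolic genes (left) and 16 mitochondrial genes (right), in the order of the KMS12-BM values; bars are the standard error, circles are KMS12-BM and squares JJN3, and open symbols did not pass the test. RARS2 reaches 2.01 in JJN3, MARS2 -1.22 in KMS12-BM, and VARS2 lies at 0.81 in KMS12-BM and 0.87 in JJN3.

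With TG003 in JJN3 both classes had more genes higher than lower. Of the cytosolic genes 9 of 20 were higher and 2 lower, beside 26.2% of all tested genes higher and 32.1% lower, and 7 of 16 mitochondrial genes were higher and 3 lower. The median log2 fold change was 0.25 for cytosolic genes, 0.23 for mitochondrial genes and -0.04 for all tested genes. Of the 12 ATF4-linked genes 5 were higher (median 0.23), and of the 8 other cytosolic genes 4 were higher and 2 lower (median 0.27). Of the 8 stress response genes 2 were higher and 2 lower (median 0.24), and of the 13 partners 3 were higher and 1 lower. RARS2 had 27.4, 26.3 and 28.5 CPM with TG003, against 8.94, 6.62 and 5.23 CPM with DMSO, the largest rise of a member with this drug (log2 fold change 2.01 ± 0.15, adjusted p = 1.38e-07). VARS2 had 35.4, 33.6 and 32.0 CPM with TG003, against 18.2, 21.3 and 16.5 CPM with DMSO (log2 fold change 0.87 ± 0.09, adjusted p = 4.27e-06). NARS2 had 53.1, 59.3 and 58.0 CPM with TG003, against 38.7, 36.6 and 38.4 CPM with DMSO (log2 fold change 0.61 ± 0.07, adjusted p = 9.64e-06). None of these 3 genes overlapped between the groups.

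CARS1 had 92.9, 91.1 and 81.6 CPM with TG003, against 54.6, 56.3 and 51.5 CPM with DMSO, again with no overlap (log2 fold change 0.74 ± 0.09, adjusted p = 9.41e-06). It thus rose with TG003 in both lines, although it was lower with amiloride in JJN3. RARS1 had 118, 121 and 118 CPM with TG003, against 84.3, 90.8 and 69.5 CPM with DMSO (log2 fold change 0.58 ± 0.09, adjusted p = 0.000171). QARS1 had 247, 239 and 239.9 CPM with TG003, against 158, 146 and 208 CPM with DMSO (log2 fold change 0.53 ± 0.13, adjusted p = 0.0045). Both had separate ranges. TARS1 had 363, 377 and 346 CPM with TG003, against 285, 301 and 246 CPM with DMSO (log2 fold change 0.41 ± 0.08, adjusted p = 0.000699). AARS1 had 619, 574 and 532 CPM with TG003, against 506, 472 and 389 CPM with DMSO (log2 fold change 0.37 ± 0.11, adjusted p = 0.0118). These were higher in every TG003 library as well, AARS1 by a small gap. AARS1 lost its call without replicate 3 of DMSO or replicate 1 of TG003 (adjusted p = 0.0534 to 0.0536).

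Of the other genes followed, TARS3 (0.37 ± 0.13, adjusted p = 0.0269), IARS2 (0.37 ± 0.06, adjusted p = 0.000252) and LARS2 (0.28 ± 0.09, adjusted p = 0.013) were higher and KARS1 (-0.22 ± 0.08, adjusted p = 0.0364) was lower. HARS1 (0.28 ± 0.10, adjusted p = 0.0253), LARS1 (0.26 ± 0.08, adjusted p = 0.0184), CARS2 (0.45 ± 0.08, adjusted p = 0.000333) and WARS2 (0.36 ± 0.07, adjusted p = 0.000841) were higher, and VARS1 (-0.30 ± 0.08, adjusted p = 0.00473), YARS2 (-0.29 ± 0.09, adjusted p = 0.011) and MARS2 (-0.42 ± 0.08, adjusted p = 0.000371) were lower. GARS1 (0.24 ± 0.10, adjusted p = 0.0673), WARS1 (0.17 ± 0.08, adjusted p = 0.0872), EPRS1 (0.12 ± 0.09, adjusted p = 0.3) and EARS2 (0.15 ± 0.06, adjusted p = 0.0622) did not pass. Calls were lost for KARS1 without replicate 2 or 3 of either group (adjusted p = 0.0569 to 0.167). TARS3 lost its call with the GC trend removed (adjusted p = 0.0576) and without replicate 2 of either group or replicate 3 of TG003 (adjusted p = 0.0612 to 0.103). LARS2 lost its call without replicate 3 of DMSO or replicate 1 of TG003 (adjusted p = 0.0563 to 0.0635). HARS1, without replicate 3 of DMSO or 1 of TG003, LARS1, without replicate 3 of DMSO or 2 or 3 of TG003, and YARS2, without replicate 2 of DMSO, lost theirs as well (adjusted p = 0.0574 to 0.112). PARS2 was called lower (log2 fold change -0.21 ± 0.09, adjusted p = 0.0484), a call that held in 10 of 19 alternative settings (adjusted p up to 0.147). WARS1 and GARS1 passed without replicate 1 of DMSO or replicate 3 of TG003. With same-numbered libraries as a block, 6 further genes passed, all with positive changes: FARSA (adjusted p = 0.0126), GARS1 (0.0178), MARS1 (0.0331), EARS2 (0.0392), FARS2 (0.0105) and HARS2 (0.0386). Without replicate 3 of DMSO, 5 cytosolic genes in place of 9 were higher and the cytosolic median was 0.14. The 2 cytosolic genes lower became 1 without replicate 2 or 3 of either group, and the 3 mitochondrial genes lower became 1 without replicate 2 of DMSO.

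The lines had 3 cytosolic genes (CARS1, RARS1 and TARS3) and 5 mitochondrial genes (LARS2, NARS2, RARS2, VARS2 and WARS2) called higher with TG003 in both, and KARS1, VARS1, MARS2 and YARS2 called lower in both. Of the genes tested in both lines, 17.7% were higher in both with TG003 and 22.8% lower in both. At least 1 of the 4 drug comparisons was passed by all 36 members and by 95.2% of all genes tested in both lines. All 7 plasma-cell markers were lower with TG003 in both lines, adding up to 903 to 959 CPM against 2071 to 2156 CPM with DMSO in KMS12-BM and to 1070 to 1176 CPM against 1951 to 2136 CPM in JJN3. Markers of other cell types added up to 145 to 158 CPM with TG003 against 159 to 179 CPM with DMSO in KMS12-BM, and to 44.3 to 50.8 CPM against 79.9 to 91.7 CPM in JJN3. The TG003 libraries are also those with few pseudogene reads, and drug and that difference cannot be told apart. The part of these differences in the results was not tested beyond adding the members' own pseudogenes.

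Whether the lines differed in their response to TG003, given at 0.4 mM to both, was tested in the same way. The interaction passed the test for 2 of 20 cytosolic genes, both with the response in KMS12-BM below that in JJN3, where 7.13% of all tested genes were above and 6.8% below. Of 16 mitochondrial genes, 2 were above and 2 below. IARS1, the cytosolic isoleucyl enzyme, had 386, 401 and 447 CPM with TG003 against 469, 492 and 604 CPM with DMSO in KMS12-BM, and 335, 378 and 334 CPM with TG003 against 289, 313 and 247 CPM with DMSO in JJN3. It was lower in KMS12-BM and higher in JJN3, where the call was lost without replicate 3 of DMSO or 2 of TG003 (adjusted p = 0.0556 to 0.0575), and the responses differed by -0.64 ± 0.15, adjusted p = 0.00637. YARS1 differed by -0.36 ± 0.12, adjusted p = 0.0486, RARS2 by -1.31 ± 0.34, adjusted p = 0.0177, MARS2 by -0.77 ± 0.13, adjusted p = 0.000476, AARS2 by 0.40 ± 0.12, adjusted p = 0.0346 and TARS2, the mitochondrial threonyl enzyme, by 0.58 ± 0.13, adjusted p = 0.00551.

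The YARS1 difference lost its call with DESeq2 size factors, upper-quartile factors or no filter (adjusted p = 0.0566 to 0.063) and without any 1 of 12 libraries (adjusted p = 0.0513 to 0.128). In KMS12-BM these were replicates 2 and 3 of DMSO, 2 of amiloride, and 1 and 2 of TG003, and in JJN3 all 3 of DMSO and replicates 1 and 2 of each drug. The RARS2 difference lost its call without replicate 3 of JJN3 with DMSO (adjusted p = 0.0505), which left 1 mitochondrial gene below. The 2 cytosolic genes below became 4 without replicate 1 of KMS12-BM with DMSO, and 1 without 9 of those 12 libraries (all but replicate 1 of JJN3 with DMSO, replicate 2 of JJN3 with amiloride and replicate 2 of KMS12-BM with TG003). The AARS2 difference lost its call (adjusted p = 0.0691 to 0.108), so that the 2 mitochondrial genes above became 1, without replicate 2 or 3 of DMSO or 2 of TG003 in KMS12-BM, or replicate 1 of DMSO or 2 or 3 of TG003 in JJN3. With libraries of the same number fitted as a block, 4 cytosolic genes in place of 2 had the response in KMS12-BM below that in JJN3.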

How the data were processed

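Total RNA of 18 libraries (6 groups of 3) had been made into strand-specific TruSeq libraries and sequenced, per the labels' protocols. The deposited values are raw counts of reads per Ensembl gene, with no normalization by the authors. The submitters' processing notes name cutadapt 1.4, TopHat2 2.0.11, HTSeq 0.6.1p1 and DESeq2 1.12.4 and the build hg19, while annotation and strand setting were not given in the sources used here. Lines that HTSeq gives to no gene were left out of library sizes; relative to all counted lines, those in no feature held 6.42% to 13.6% and those without a unique place 7.79% to 17.4%.

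Counts were tested with edgeR 4.0.16 (R 4.3.3), using the quasi-likelihood test with TMM factors, filterByExpr (minimum count 10, minimum total 15), robust dispersion and Benjamini-Hochberg adjustment over all tested genes. Each line's 9 libraries were fitted alone for the drug comparisons, and all 18 together for the lines and the differences between responses. Library depth ran from 23707695 to 50570234 reads in genes, and the precision of a value is limited by 3 libraries per group. CPM used TMM factors over all 18 libraries. Transcript lengths, exons and overlaps came from GENCODE v44 lifted to GRCh37.

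Members and gene lists were chosen with earlier results of these data known. Named in each comparison are the 5 cytosolic and 3 mitochondrial members with the largest changes among those past the threshold whose groups did not overlap (3 and 2, with no condition on overlap, for differences between responses), and 10 fixed genes for the drugs. Other genes named were chosen after their values were seen.

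The labels give each library a serial number. Sorted by it, the libraries fall into 3 sets of 6, each with 1 library of every group. The numbers 1 to 3 were given here by set, so same-numbered libraries are an inference and not a label. Deviations of same-numbered libraries correlated at 0.102 to 0.234 for amiloride and 0.117 to 0.314 for TG003 in KMS12-BM and at 0.251 to 0.259 for TG003 in JJN3, and so counted as paired. The main tests fitted group means with no block, so this pairing enters only as an alternative. Alternatives were other size factors, no filter, at least 1 CPM in 3 libraries, limma 3.58.1 with voom, DESeq2 1.42.0, the compared groups alone, a replicate block, removal of a GC trend, added pseudogene counts, levels per kilobase, and leaving out each library. Scripts were tested on simulated data.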

Additional observations from a re-analysis of the deposited data

Results flagged for a closer look

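These results are listed because the responses of the lines differed by the interaction term of the fit to all 18 libraries, in edgeR's quasi-likelihood test with adjustment over all tested genes. For amiloride, the response in KMS12-BM was above that in JJN3 for 10 of 20 cytosolic genes and below it for 4, and it was above for 3 of 16 mitochondrial genes and below for 6, beside 21.6% of all tested genes in each direction. On the log2 scale, KMS12-BM minus JJN3, the difference was 2.23 for SARS1, 2.22 for CARS1 and 1.35 for GARS1, and it was -1.85 for SARS2 and -1.08 for YARS2. The doses of amiloride were not the same in the lines.

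For TG003, the response in KMS12-BM was below that in JJN3 for 2 of 20 cytosolic genes, and it was above for 2 of 16 mitochondrial genes and below for 2, beside 7.13% of all tested genes above and 6.8% below. Without 1 library at a time, the cytosolic count was 1 to 4. The difference was -0.64 for IARS1 and -0.36 for YARS1 among the cytosolic genes, and -1.31 for RARS2 and -0.77 for MARS2 among the mitochondrial genes. The YARS1 difference (adjusted p = 0.0486) missed the threshold with DESeq2 size factors (0.063), upper-quartile factors (0.0566) and no filter (0.0584), and without any 1 of 12 libraries. The other errors and adjusted p are given with the results.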

How the results depend on the processing

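Across the alternatives, 588 counts of called members stayed within 1.5 times the value reported and 44 did not. Of the log2 fold changes of called or named members, 3455 kept their direction and side of the threshold, 168 were no longer past it, 21 newly passed it and 29 changed sign. Trying the alternatives on members outside the rule for names was chosen after seeing the data. The cause of the changes was not tested. Depth limits SARS2 most, whose lowest count was 48 reads.

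With the GC trend removed, 3 cytosolic genes were lower with amiloride in KMS12-BM, the medians there were 0.2508 (cytosolic) and -0.1414 (mitochondrial), the median cytosolic difference between the lines in response to amiloride was 0.2475, and 5 cytosolic genes had a TG003 response in KMS12-BM below that in JJN3. That last count was 1 with DESeq2 size factors or upper-quartile factors, and without a filter 1 mitochondrial gene had a TG003 response above that in JJN3. With upper-quartile factors 5 cytosolic genes were higher with TG003 in KMS12-BM, where all tested genes split into 4929 higher and 4377 lower, against 4245 higher and 5000 lower with TMM. With the compared groups alone, 1 cytosolic gene was lower with amiloride in JJN3.

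With libraries of the same number as a replicate block, 5 cytosolic genes were lower with amiloride in JJN3, and 4 cytosolic genes had a TG003 response in KMS12-BM below that in JJN3; no other count of called members moved by over 1.5 times. The members whose calls it changed in paired comparisons stand in the report. Same-numbered libraries correlated at 0.006 to 0.099 for amiloride in JJN3 and -0.012 to 0.046 between the lines. There they were not counted as paired, though a low correlation cannot show that the libraries of a set are unrelated.

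Per kilobase, the cytosolic over mitochondrial ratio was 10.55 (amiloride) and 4.834 (TG003) in KMS12-BM, and 8.161 (amiloride), 7.027 (TG003) and 7.62 (DMSO) in JJN3.

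Leaving out 1 library gave these ranges. With amiloride, 2 to 4 mitochondrial genes were higher in KMS12-BM, and in JJN3 1 to 4 cytosolic genes were lower and 1 to 2 mitochondrial genes higher. With TG003, 3 to 5 cytosolic genes were higher in KMS12-BM, and in JJN3 5 to 12 cytosolic genes were higher, 1 to 2 lower, and 1 to 3 mitochondrial genes lower. In response to TG003, 1 to 4 cytosolic genes were below in KMS12-BM, 1 to 2 mitochondrial genes above and 1 to 3 below.

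Among these members, sign changed as follows. With amiloride in KMS12-BM, the GC correction gave 0.1401 for VARS1 and 0.0131 for TARS2, both called lower in the report, and -0.0304 for IARS1, -0.0713 for TARS3, -0.1524 for IARS2 and 0.0573 for LARS2, none of them called. Leaving out 1 library gave -0.0127 to 0.22 for KARS1, -0.0246 to 0.2017 for TARS3, -0.0546 to 0.1974 for IARS2 and -0.1389 to 0.0389 for LARS2. With TG003 in KMS12-BM, upper-quartile factors gave 0.0414 for WARS1, 0.0171 for GARS1, 0.0498 for TARS1, 0.0307 for PARS2 and 0.0025 for IARS2. Leaving out 1 library gave -0.1673 to 0.0684 for WARS1, -0.1602 to 0.032 for GARS1, -0.1318 to 0.0741 for TARS1, -0.1426 to 0.0939 for PARS2 and -0.2106 to 0.0032 for IARS2. The difference between the lines in response to amiloride was 0.05 for VARS1 with the GC correction, where it had been called negative, and for VARS2, not called, -0.0186 with upper-quartile factors and -0.1337 to 0.156 without 1 library.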
